A study of Cicer arietinum with 8 samples.

Results

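Watered roots of the drought-tolerant chickpea genotype ICC4958 (DT) were compared with watered roots of the drought-sensitive genotype ICC1882 (DS), as DT(C)/DS(C), where C is the watered control. The comparison shows what separates root transcripts of the genotypes without any water deficit. Roots came from 27-day-old plants grown in a chamber and watered every other day, and they were sequenced as 2 libraries for each of the 4 conditions, the other 2 conditions being the same genotypes under withheld water, DT(D) and DS(D), for a time on which the labels and the methods differ. The values are FPKM, fragments scaled to transcript length and to the mapped fragments of a library, and each condition has 1 value per locus in which its 2 libraries are pooled. Replicate spread therefore cannot be seen, no difference was tested, and the sequencing depth behind a value is unknown. Each genotype is a single accession grown in 1 experiment, so genotype cannot be told apart from any difference between the plants or libraries of these samples. Root marker genes were not checked, as no names were at hand for most identifiers.

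Of 30978 loci, 20231 had FPKM of at least 1 in DT(C), in DS(C) or in both and entered the comparison. A log2 ratio of at least 1 was called higher in DT and one of at most -1 lower in DT. By this fold rule 2244 loci (11.1%) were higher in DT(C) and 1045 (5.17%) were lower, while 16942 (83.7%) lay between. The median log2 ratio was 0.09, and the quartiles were -0.30 and 0.52.

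Roots respond to their water supply through several connected systems. Phosphoinositide lipids in the membrane are phosphorylated by kinases and cut by phospholipase C, which releases inositol phosphate and diacylglycerol as messengers. Glycolysis delivers carbon and energy, and glutathione with its enzymes keeps reactive oxygen and toxic products in check. The QTL-hotspot is a chickpea genome region where several quantitative trait loci for drought tolerance traits lie together. According to the study, both genotypes have been used to make bi-parental populations for mapping such loci. The gene names and the lists for these systems were taken from the study, which chose them on these plants, so their direction is not independent evidence.

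The gap between the genotypes followed the level of the transcript. When loci were divided into 10 groups by their mean log2(FPKM + 1), the lowest group had a median log2 ratio of 0.49 and the highest group a median of -0.32. The medians of the groups between them declined at each step, passing 0.19 in the fifth group and -0.02 in the eighth. In the highest group, with a median level of 275.8 FPKM, 1507 of 1998 loci (75.4%) had a log2 ratio below 0. In the lowest group, with a median level of 1.33 FPKM, 1476 of 2203 (67%) had a ratio above 0. Weakly expressed loci thus leaned to DT and the most abundant ones to DS.

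The ratios also spread more at low levels. The interquartile range was 1.46 in the lowest group and 0.54 in the highest. Of the lowest group 35% were called higher in DT and 13.8% lower, against 3.15% and 4.6% in the highest group. Loci called higher had a median DT(C) level of 6.21 FPKM and loci called lower a median DS(C) level of 8.65 FPKM, both below the median of 16.8 FPKM for the higher genotype over all loci entered. In 33.9% of the called loci the genotype with less transcript had FPKM under 1.

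The FPKM of all loci summed to 1.21 times as much in DS(C) as in DT(C). The 100 most abundant loci held 29.2% of the sum in DS(C) and 24.5% in DT(C). Rescaling the conditions to the same sum would move every log2 ratio up by 0.27 and leave the slope with level in place. The droughted roots did not have the same slope, since in the same 10 groups the median of DT(D)/DS(D) went from 0.03 in the lowest to 0.23 in the highest. Neither the part of library composition nor that of the authors' scaling was tested. For this reason a second value is given below, the ratio centred on the median of its level group. After centring, 1649 loci were higher in DT(C) and 1393 lower, so the share of higher loci among all called went from 68.2% to 54.2%. Of the loci called without centring, 1547 of the higher and 960 of the lower ones were called with it too.

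**Figure D1:**
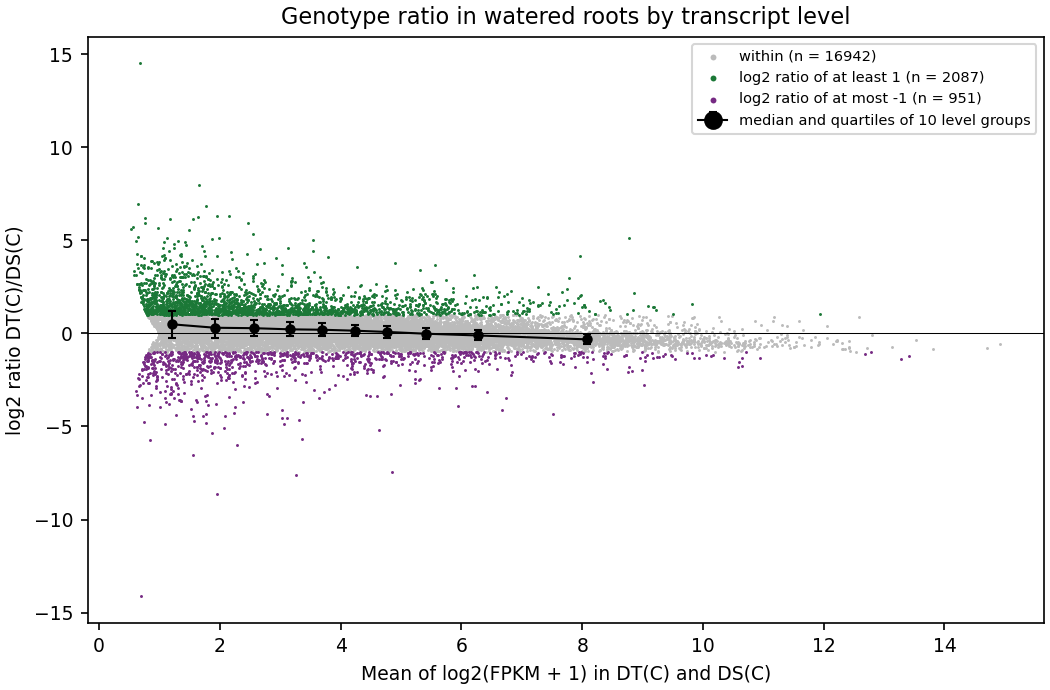
The log2 ratio DT(C)/DS(C) of each locus with a value above 0 in both conditions is plotted against the mean of log2(FPKM + 1) in DT(C) and DS(C), in green for ratios of at least 1 and in purple for ratios of at most -1. Black points and bars are the median and quartiles of 10 level groups, and their medians descend from 0.49 to -0.32.

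The droughted roots gave a view of the genotypes from other libraries, because DT(C)/DS(C) and DT(D)/DS(D) share no value. Over all loci entered, 1232 (6.09%) were higher and 903 (4.46%) lower in DT(D) by the same fold rule with FPKM of at least 1 in DT(D) or DS(D). Of the 2244 loci higher in DT(C), 390 (17.4%) were also higher in DT(D), and 132 (5.88%) were lower there. Of the 1045 loci lower in DT(C), 300 (28.7%) were also lower in DT(D), and 70 (6.7%) were higher there. Most genotype differences of watered roots were thus not past the threshold in droughted roots, but more were repeated than over all loci. The lower loci kept their direction in a larger share than the higher ones, and the median log2 ratio DT(D)/DS(D) was -0.36 in the former and 0.11 in the latter, beside 0.10 over all loci. Across 19563 loci with both ratios, which share an annotation and a level but no library, Pearson's r was 0.25 and Spearman's rho was 0.11.

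Among loci above 0 in both genotypes, the larger the watered difference, the more often it returned. Of loci higher in DT(C) by a log2 ratio of 1 to 2, 12.5% of 1610 were also higher in DT(D), and of those past 4, 51.8% of 56 were. Of loci lower in DT(C) by 1 to 2, 20.6% of 734 were also lower in DT(D), and of those past 4, 73.3% of 30 were. Of loci listed at 0 in the other genotype, 42% of the 157 higher and 48.9% of the 94 lower ones were repeated. These shares are below those of loci past 4, but a repeat needs at least 1 FPKM under drought. Only 94 of the 157 reached it in DT(D), of which 66 were repeated. Of the 94 lower loci 58 reached it in DS(D), of which 46 were repeated. Median watered levels were 2.49 and 2.42 FPKM, against 4.75 and 12.3 FPKM for loci past 4. By level, 20% of higher and 36.6% of lower loci were repeated in the lowest group, where 14.3% and 12% of all loci were past the threshold under drought. In the highest group 9.52% and 10.9% were repeated, beside 3.85% and 2.3% of all loci.

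**Figure D2:**
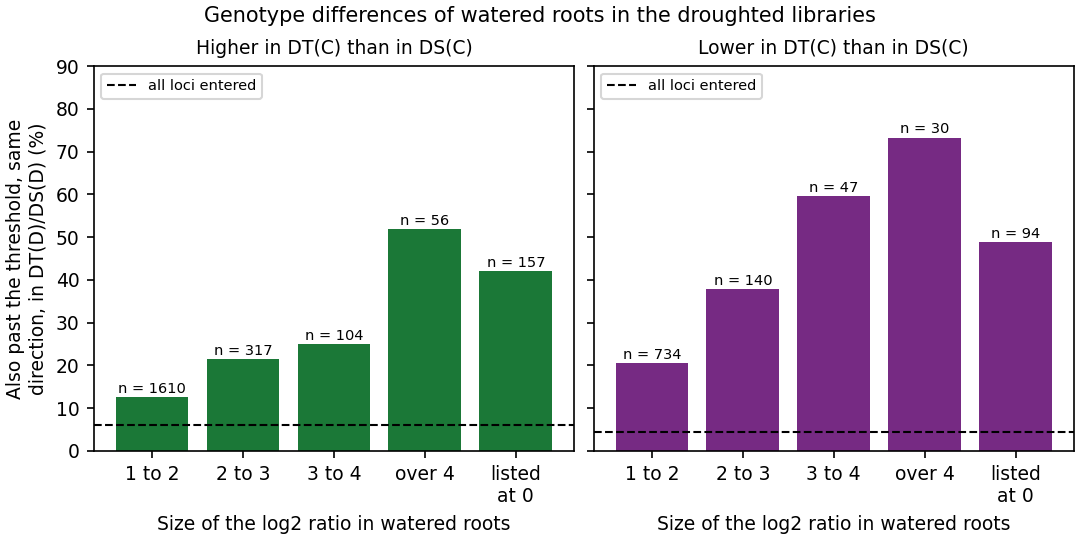
Bars give the percentage of loci past the threshold in watered roots that were past it in the same direction in DT(D)/DS(D), by the size of the watered log2 ratio, with loci listed at 0 in the other genotype last and n above each bar. The dashed line is the percentage over all loci entered, 6.09% for higher and 4.46% for lower, and every bar stands above it.

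Some loci were seen in only 1 genotype. In watered roots 157 loci were listed at 0 in DS(C), with a median of 2.49 FPKM and a highest value of 138.3 FPKM in DT(C). Another 94 were listed at 0 in DT(C), with a median of 2.42 FPKM and a highest value of 154.1 FPKM in DS(C). An exact 0 in such a table can be a failed estimate, and no fold is given for these loci. Of the 157, 75 were also listed at 0 in DS(D) and 38 reached FPKM of at least 1 there. Only 44 of these 75 had at least 1 FPKM in DT(D). Of the 94, 53 were also listed at 0 in DT(D) and 23 reached FPKM of at least 1 there. Only 32 of these 53 had at least 1 FPKM in DS(D). A listing at 0 in watered roots was thus not always repeated in the droughted roots of that genotype. Most of these loci were weak, and 17 of the 157 and 15 of the 94 reached 10 FPKM in the genotype that had them.

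Loci to which the table gives no gene identifier, as an assembly guided by a reference can add to an annotation, differed between the genotypes more often than annotated genes. Of 2945 such loci, 23.2% were higher in DT(C) and 12.5% lower, against 9.08% and 4.03% of 16744 loci with 1 gene identifier. At FPKM of at least 10 the shares were 15.1% and 8.99% of 1257 loci without identifier, and 5.69% and 3.4% of 11085 loci with 1. Under drought 22.7% of the higher and 42.5% of the lower ones were past the threshold in the same direction, beside 10.9% and 12.9% of all loci without identifier. For loci with 1 identifier these shares were 15.4% and 21.4%, beside 5.4% and 3.09% of all such loci, so set against its own background neither class can be said to return more often. Of the higher loci, 10.9% of those without identifier and 3.75% of those with 1 were lower under drought. These shares stood near the 12.9% and 3.09% of all loci of the same class that were lower there. Of the loci listed at 0 in DS(C), 89 of 157 had no identifier, and of those listed at 0 in DT(C), 40 of 94.

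Loci with neighbouring numbers tended to differ in the same direction. The locus numbered next to one higher in DT(C) was also higher in 19.9% of 1691 cases, beside 10.9% over all 15157 neighbouring pairs. For lower loci this was 11.6% of 759 cases beside 5.13%. These backgrounds pool loci with and without identifier, which were called at different rates, and the classes were not counted apart. Neighbouring loci can be pieces of 1 transcript, so they are not independent, and the table gives no coordinates. There were 11 unbroken runs of at least 5 loci in 1 direction, 7 higher and 4 lower in DT(C), and 10 of them held no gene identifier at all.

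The runs, which were sought after the values had been seen, were of different kinds. The longest held 9 loci, each with at least 1.04 FPKM in DT(C) and at most 0.993 FPKM in DS(C), and 5 of the 9 were also higher in DT(D). The other 4 had a log2 ratio of at least 1 there too but less than 1 FPKM in both genotypes. A run of 7 loci had between 0 and 0.71 FPKM in DT(C) and between 1.37 and 38.3 FPKM in DS(C), and 6 of its 7 loci were also lower in DT(D), the remaining one being listed at 0 in DT(D) with 0.55 FPKM in DS(D). The only run of annotated genes held 5 with 6.48 to 27.7 FPKM in DT(C) and 47.2 to 195.6 FPKM in DS(C), and none of them was lower in DT(D) by the fold rule. Its gene Ca_14115 was turned, with 2.81 FPKM in DT(D) and a listing at 0 in DS(D). Single loci of other runs also turned, such as XLOC_008962, higher in DT(C), with a droughted log2 ratio of -2.07. A genotype gap over a stretch of loci was therefore shared by both water regimes in some runs. In others it was not repeated in the same direction in droughted roots, a difference that was not tested.

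Among well-expressed annotated genes a small set differed in both water regimes. Loci with 1 identifier, at least 10 FPKM in the higher and at least 1 FPKM in the lower genotype under both regimes numbered 10406, leaving out the named genes. Of these 10406, 61 were higher in DT by a log2 ratio of at least 1 in both regimes and 48 were lower in both. In the wider set of 11085 loci with 1 identifier and at least 10 FPKM when watered, 5.69% were higher and 3.4% lower in watered roots. In droughted roots 3.82% and 2.25% of that set were. Whether the joint counts exceed what such separate rates would give was not tested. The 2 genes highest in DT by the smaller of their 2 ratios and the 2 lowest are given by identifier, because no name for them was found. Ca_23848 had 31.6 FPKM in DT(C) against 1.33 in DS(C), and 30.4 in DT(D) against 1.40 in DS(D). Ca_14767 had 1036 FPKM in DT(C) against 58.7 in DS(C), and 603.3 in DT(D) against 27.6 in DS(D). Both had many times more transcript in DT, whether watered or droughted. In the other direction Ca_21085 had 3.58 FPKM in DT(C) against 133 in DS(C), and 2.73 in DT(D) against 125.5 in DS(D). Ca_11543 had 1.00 FPKM in DT(C) against 51.2 in DS(C), and 1.15 in DT(D) against 17.9 in DS(D). These 4 genes had watered log2 ratios of 4.57, 4.14, -5.21 and -5.68, in that order, and droughted ratios of 4.44, 4.45, -5.52 and -3.96. They were picked on both ratios, so the likeness of the regimes follows from the choice. Ca_11543 stood at the minimum of 1 FPKM in DT(C).

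Of the 110 genes on the 5 lists, 105 entered the comparison, 14 (13.3%) were higher in DT(C) and 4 (3.81%) were lower. Genes that the study chose on this comparison are among them, so these shares are not read against those of all loci. Among the 18 past the threshold, 2 lower genes were also lower in DT(D) and none of the 14 higher ones was also higher there by the fold rule with its minimum of 1 FPKM. The P450 gene Ca_04587 and the AP2-EREBP gene Ca_04503 had droughted log2 ratios of 2.76 and 1.39 but were below that minimum. The order of genes below follows their roles.

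The study designed RT-qPCR primers for some of these genes, and those of 4 genes on which the lists below turn are printed so that their transcripts can be found by sequence. Each is written 5′ to 3′ in lower case, and no capitals are used.
Ca_00102, fructose 1,6-bisphosphatase, forward: actgcgtggcaagtacattgtt
Ca_00102, fructose 1,6-bisphosphatase, reverse: aacaccgcaatcaatgtttgag
Ca_12485, phosphoinositide-specific phospholipase C, forward: tgagcagcgattgcagtgat
Ca_12485, phosphoinositide-specific phospholipase C, reverse: caattactcgcacacctctttgc
Ca_04587, cytochrome P450 family 76, forward: accagactcttgatgccagtca
Ca_04587, cytochrome P450 family 76, reverse: ggatatcattgagaagctgttgca
Ca_04504, the DREB transcription factor, forward: ggtgtgtgaagtgagggaacct
Ca_04504, the DREB transcription factor, reverse: cgccatctcgggattagga
The 8 oligonucleotides are 19 to 24 bases long with 40.9% to 57.9% G and C. No RT-qPCR value was used here.

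Genes of phosphatidylinositol signaling leaned to DT in watered roots. All 17 entered and 13 had a log2 ratio above 0, or 12 after centring. Most loci of a similar level were above 0 too, as the median ratio was 0.19 in the fifth level group. Of the 17 genes 3 (17.6%) were called higher and none lower, beside 11.1% and 5.17% of all loci. Counts this small do not set the list apart. The median of the list was 0.55, beside 0.09 over all loci, and 0.44 after centring. In droughted roots the median of the same genes was 0.10, with 10 of 17 above 0.

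Phosphoinositide-specific phospholipase C (PI-PLC, Ca_12485), which cuts the phosphorylated membrane lipid into its messengers, had 5.47 FPKM in DT(C) against 1.59 in DS(C), a log2 ratio of 1.78. Under drought it had 0.47 FPKM in DT(D) against 0.88 in DS(D), so the order of the genotypes was the other way round at levels under 1 FPKM. Its neighbour by identifier, phospholipase C 2 (Ca_12484), had 38.8 FPKM in DT(C) against 36.5 in DS(C), a log2 ratio of 0.09, and no genotype gap was seen in this far more abundant relative. The phosphatidylinositol-4-phosphate 5-kinases, which supply the substrate, had ratios above 0 as well, most of them below the threshold. Phosphatidylinositol-4-phosphate 5-kinase 1 (PI4P5K1, Ca_04252) had 4.11 FPKM in DT(C) against 1.56 in DS(C), with 2.90 in DT(D) against 2.70 in DS(D). The kinases Ca_03113, Ca_16741 and Ca_23825 of the same activity had log2 ratios of 0.81, 0.70 and 0.13, the last of them -0.08 after centring. Among other lipid kinases the PI3P 5-kinase Ca_04329 had 0.94. Diacylglycerol kinase 3 (Ca_03279) had the lowest ratio of the list, -0.78, with 43.5 FPKM in DT(C) against 74.5 in DS(C).

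The third called member of this list, a phosphoglycerate mutase-like gene (Ca_10542), had 8.43 FPKM in DT(C) against 4.14 in DS(C), with 10.4 in DT(D) against 12.6 in DS(D). Its log2 ratio of 1.03 was 0.75 after centring and so not past the threshold. The most abundant member went the other way. Inositol monophosphatase (Ca_00700), which returns inositol phosphate to free inositol, had 252.3 FPKM in DT(C) against 414.9 in DS(C), with 185 in DT(D) against 247.3 in DS(D). Its watered log2 ratio of -0.72 was -0.39 after centring.

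Glutathione metabolism gave no gene higher in DT(C) and 1 lower (4.35%) among 23 entered, beside 11.1% and 5.17% of all loci. Counts this small do not set the list apart. The median log2 ratio was -0.30, but -0.04 after centring, and 8 of 23 genes were above 0 before it and 9 of 23 after it. The lower gene was the glutathione S-transferase GSTU20 (Ca_23113), of the plant tau class that joins glutathione to toxic compounds, with 1.60 FPKM in DT(C) against 4.49 in DS(C). It had 0.41 FPKM in DT(D) against 1.33 in DS(D), so DS was higher in both regimes, at log2 ratios of -1.49 and -1.68. The most abundant gene of the list was dehydroascorbate reductase 2 (Ca_18637), which uses glutathione to restore ascorbate, with 714.7 FPKM in DT(C) against 1070 in DS(C). Under drought it had 1657 FPKM in DT(D) against 1244 in DS(D), the other order. Its log2 ratios were -0.58 watered, or -0.26 after centring, and 0.41 droughted. The median of its level group, the highest, also turned, from -0.32 to 0.23. Of the 4 genes that did not enter, 3 were below 1 FPKM in both watered genotypes, and glutathione-disulfide reductase (Ca_24310) was listed at 0 in every condition.

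Genes of glycolysis and gluconeogenesis separated by their abundance. Of 43 genes entered, 3 (6.98%) were higher in DT(C) and 1 (2.33%) lower, beside 11.1% and 5.17% of all loci. A log2 ratio below 0 was found for 29 of the 43. The list median was -0.19, but -0.01 after centring and 0.08 when the columns were rescaled to the same sum. Of the 17 genes with at least 100 FPKM in both genotypes, 15 were below 0, with a median of -0.44. That is near the median of -0.32 for the highest level group of all loci, and after centring the median of the 17 was -0.11, with 11 of 17 below 0. In droughted roots 3 of the same 17 were below 0, with a median of 0.39, beside 0.23 for the highest level group of all loci. The order of the genotypes in these enzymes, DS above DT when watered and the reverse when droughted, was thus also that of other abundant transcripts.

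The enzymes at the top of this list were aldolase (Ca_27205) and enolase (Ca_00761), which split fructose bisphosphate and make phosphoenolpyruvate. Aldolase had 1927 FPKM in DT(C) against 2876 in DS(C), with 2177 in DT(D) against 1513 in DS(D). Enolase had 2122 FPKM in DT(C) against 2873 in DS(C), with 2214 in DT(D) against 1733 in DS(D). Both had log2 ratios within the threshold, -0.58 and -0.44.

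The gene of this list most in favour of DT was fructose 1,6-bisphosphatase (FBPase, Ca_00102), the gluconeogenic enzyme that removes a phosphate from fructose bisphosphate. It had 64.2 FPKM in DT(C) against 16.5 in DS(C), a log2 ratio of 1.96, and 1.98 after centring. Under drought it had 24.97 FPKM in DT(D) against 13.2 in DS(D), the same order at a log2 ratio of 0.91. Aldehyde dehydrogenase 7B4 (Ca_22351), which oxidises reactive aldehydes, had 120 FPKM in DT(C) against 54.4 in DS(C), with 128.4 in DT(D) against 95.8 in DS(D). A galactose mutarotase-like gene (Ca_15348) had 9.43 FPKM in DT(C) against 4.58 in DS(C), with 7.59 in DT(D) against 6.41 in DS(D). It was past the threshold at 1.04 but at 0.83 after centring.

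Pyruvate decarboxylase-2 (PDC2, Ca_00374), which directs pyruvate into ethanol fermentation, was the 1 gene of glycolysis called lower without centring. It had 178.4 FPKM in DT(C) against 374.2 in DS(C), with 158.6 in DT(D) against 108.2 in DS(D). The watered log2 ratio was -1.07 but -0.75 after centring, within the threshold, and the droughted ratio was 0.55. After centring the 1 gene called lower was instead aldehyde dehydrogenase 11A3 (Ca_03341), with 23.4 FPKM in DT(C) against 44.5 in DS(C), with 9.82 in DT(D) against 13.7 in DS(D), and a ratio of -0.93 before centring. The 2 pyruvate kinases of highest level, Ca_12631 and Ca_00753, which make pyruvate, had log2 ratios of -0.82 and -0.66 in watered roots, or -0.50 and -0.34 after centring. Phosphoenolpyruvate carboxykinase 1 (Ca_11524), the enzyme that opens gluconeogenesis, had 106.8 FPKM in DT(C) against 68.5 in DS(C), a log2 ratio of 0.64. It had 253.3 FPKM in DT(D) against 88.7 in DS(D), a ratio of 1.51 that was past the threshold under drought. The glyceraldehyde-3-phosphate dehydrogenase C subunit 1 (Ca_08775) was listed at 0 in every condition, although its relative C2 (Ca_11318) had 1498 FPKM in DT(C) against 2012 in DS(C).

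**Figure D3:**
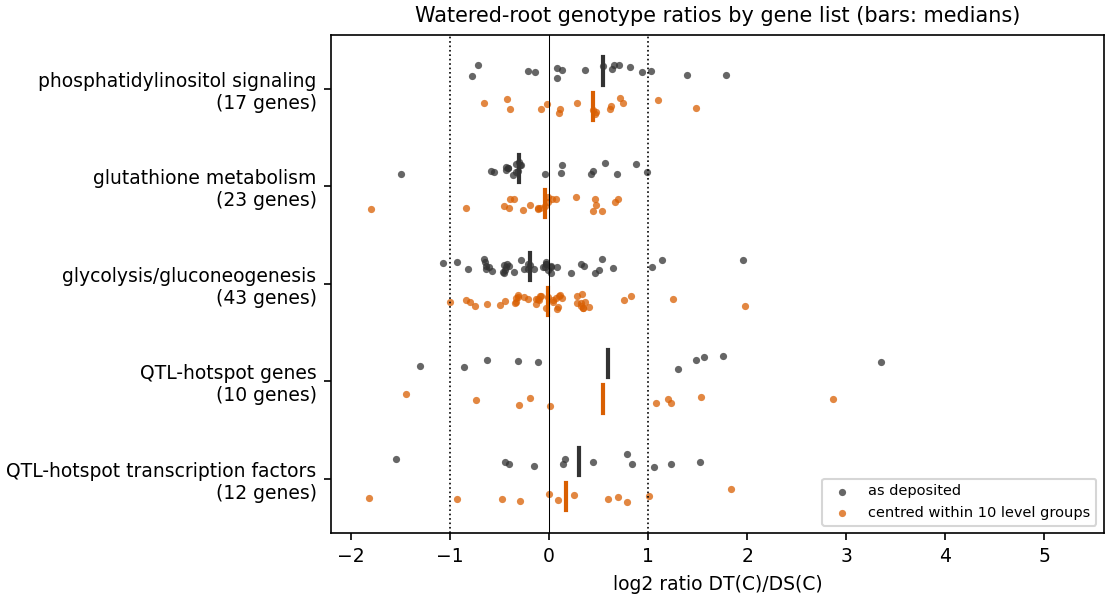
Each point is a gene of a list with FPKM of at least 1 in DT(C) or DS(C), by its log2 ratio DT(C)/DS(C) as deposited (dark) and centred within 10 level groups (orange), with bars at the medians and dotted lines at the threshold. Medians of the glutathione and glycolysis lists, -0.30 and -0.19, move to -0.04 and -0.01 with centring, while those of phosphatidylinositol signaling and the QTL-hotspot genes are 0.44 and 0.54 with it.

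Genes of the QTL-hotspot are given as a description, because the study picked the 6 called ones, and the DREB factor described after them, out of a larger region for their difference in this same comparison. Their number and the size of their gaps follow from that choice and cannot be set against the other lists. Of the 10 genes shown, 5 were higher in DT(C) and 1 was lower, before and after centring. The study named the other 4 for differences in their proteins, some of them in DT(C)/DS(C). The list thus mixes genes picked by transcript and genes picked by protein. The median was 0.59, but it lies between 5 genes below 0 and 5 past 1 and describes neither. It was -0.21 when only genes with at least 1 FPKM in both genotypes were kept, which removed 2 of the higher genes, and 1.39 when loci with several identifiers were left out.

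The widest gap among them was that of a cytochrome P450 of family 76 (Ca_04587), an oxidising enzyme of specialised metabolism, with 3.42 FPKM in DT(C) against 0.33 in DS(C). Under drought it had 0.64 FPKM in DT(D) against 0.09 in DS(D), and the log2 ratios were 3.35 and 2.76. Receptor-like protein 21 (RLP21, Ca_04471), a membrane protein of the family that perceives signals outside the cell, had 12.4 FPKM in DT(C) against 3.69 in DS(C), with 1.92 in DT(D) against 3.43 in DS(D). Copper amine oxidase (CuAO, Ca_04604), which breaks down polyamines and releases hydrogen peroxide, had 35.4 FPKM in DT(C) against 14.4 in DS(C), with 22.1 in DT(D) against 18.2 in DS(D). The DT levels of these genes were thus above the DS levels in watered roots, and under drought the order was kept for the P450 and CuAO and turned for RLP21.

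Of the other called genes of this region, 2 were higher in DT and 1 was lower. A gene named as SufD or polynucleotidyl transferase (Ca_04545) had 2.73 FPKM in DT(C) against 0.92 in DS(C), with 1.23 in DT(D) against 0.79 in DS(D). A myosin heavy chain-related gene (Ca_04474) had 7.49 FPKM in DT(C) against 2.68 in DS(C), with 3.74 in DT(D) against 5.25 in DS(D). The lipoxygenase Ca_04606, of the enzymes that oxidise fatty acids, had 11.6 FPKM in DT(C) against 28.4 in DS(C). It had 16.8 FPKM in DT(D) against 41.7 in DS(D), so it was lower in DT in both regimes by nearly the same log2 ratio, -1.30 and -1.31. The most abundant gene was a membrane-associated progesterone binding protein (Ca_04482), with 319.5 FPKM in DT(C) against 397.3 in DS(C), and with 320.5 in DT(D) against 359 in DS(D). Its watered log2 ratio of -0.31 was 0.01 after centring.

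Transcription factors of the same region gave 3 higher (25%) and 1 lower (8.33%) of 12, beside 11.1% and 5.17% of all loci. The DREB factor among the 3 was picked for this difference, so the shares are not read as a trait of the list. Their median log2 ratio was 0.30, and 0.17 after centring. The most abundant of them was a member of the AP2-EREBP family named as DREB (Ca_04504), after the dehydration-responsive elements that such factors bind. It had 350.2 FPKM in DT(C) against 122.2 in DS(C), a log2 ratio of 1.52, and 1.84 after centring. Under drought it had 17.7 FPKM in DT(D) against 10.1 in DS(D), the same order at a ratio of 0.81. The next identifier, Ca_04503, is another AP2-EREBP gene and had 12.7 FPKM in DT(C) against 5.41 in DS(C), with 0.78 in DT(D) against 0.30 in DS(D). These neighbours, which may share reads if their sequences are alike, were both higher in DT(C), and the third AP2-EREBP gene of the list, Ca_04370, had 25.5 FPKM in DT(C) against 22.7 in DS(C).

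Of the other factors, the SNF2 chromatin remodeller Ca_04622 had 6.64 FPKM in DT(C) against 3.17 in DS(C), with 4.85 in DT(D) against 6.19 in DS(D). Its log2 ratio of 1.06 was 0.79 after centring. The ovate family protein (OFP) Ca_04584, from a family of transcriptional repressors in Arabidopsis, was the factor lower in DT. It had 2.64 FPKM in DT(C) against 7.69 in DS(C), while DT(D) and DS(D) were close at 6.02 and 5.76. The remaining 8 factors, among them trihelix, MADS-box, HSF and Alfin-like genes, had log2 ratios between -0.45 and 0.84.

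**Figure D4:**
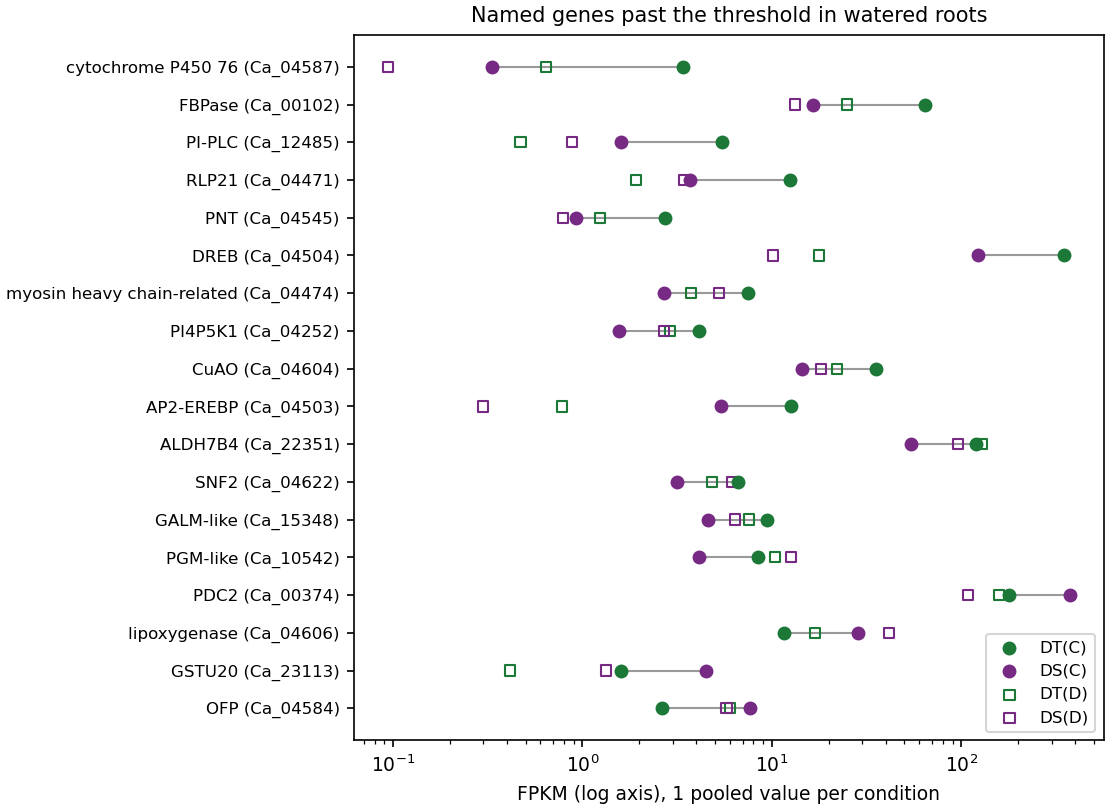
FPKM on a log axis of the 18 named genes past the threshold in watered roots, with DT in green and DS in purple, filled circles joined by a line for DT(C) and DS(C) and open squares for DT(D) and DS(D). Circles lie at least 1 log2 unit apart, and in 7 of the 18 genes the squares are in the opposite order.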

How the data were processed

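Single-end root RNA-seq of 8 libraries was used, 2 for each of 4 conditions. The deposited values are FPKM per merged locus, 1 pooled value per condition. The authors removed poor reads with NGS QC Toolkit, aligned the rest on the kabuli genome using TopHat2 2.1.1, and ran Cufflinks 2.2.1, Cuffmerge and Cuffdiff 2.2.1 (versions from the submitters' processing notes). The library scaling is not given in the sources used here. Scaling moves every ratio by a constant, and FPKM holds no depth.

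Log2 ratios were computed without a pseudocount (Python 3, numpy and pandas), with FPKM of at least 1 in either condition, and centred within 10 groups of mean log2(FPKM + 1). Alternatives were another pseudocount, filter, scaling or threshold. Members and lists were chosen with earlier results of these data known. Named genes were list genes past the threshold, the most abundant of each list, and 4 unnamed genes differing most in both regimes. Other list genes in the text, and the runs, were chosen after their values were seen. One list gene is not reported here.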

Additional observations from a re-analysis of the deposited data

Results flagged for a closer look

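For 7 of the 18 named genes past the threshold in watered roots, the genotype ratio had the opposite sign in droughted roots, and the difference between the regimes was not tested because each condition has 1 pooled value. The droughted log2 ratio DT(D)/DS(D) was -0.90 for PI-PLC (Ca_12485), -0.84 for RLP21 (Ca_04471), -0.49 for the myosin heavy chain-related gene (Ca_04474), -0.35 for SNF2 (Ca_04622) and -0.28 for the phosphoglycerate mutase-like gene (Ca_10542), all of them higher in DT(C). It was 0.55 for PDC2 (Ca_00374) and 0.07 for OFP (Ca_04584), both lower in DT(C). Over all called loci with a droughted ratio and at least 1 FPKM there, this ratio was above 0 in 58.1% of 1950 higher and 34% of 889 lower loci. A turned sign was thus not particular to the named genes.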

How the results depend on the processing

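No paired analysis was possible because each deposited value pools both libraries of its condition, and for the same reason no library could be left out. With the main settings 2244 loci were higher and 1045 lower in DT(C), the median log2 ratio was 0.09, and 17.4% and 28.7% of them were repeated in droughted roots. The higher count was 1458 with a pseudocount of 1 and 1444 when both conditions had to reach 1 FPKM. With no filter on FPKM the counts were 3551 and 1693, with 12.1% and 19.7% repeated, and with at least 5 FPKM in either they were 1253 and 654, with 25.8% of the lower ones repeated. When both had to reach 1 FPKM, 13.99% and 23.2% were repeated. Rescaling the columns to the same sum gave 3552 higher and 693 lower, a median of 0.36, and 11.7% and 38.8% repeated. Loci with 1 identifier gave 674 lower, with 15.4% and 21.4% repeated. A log2 threshold of 2 gave 634 and 311, with 20.3% and 37.0% repeated. The share of higher loci among those called was 54.2% with centring within 10 groups. No sign could change among the 22 named genes, because a pseudocount keeps the sign and each scaling shifted ratios by less than the threshold they had passed. Under the 5 settings of pseudocount and scaling, 6 of them fell under the threshold in at least 1 setting. PI4P5K1 (Ca_04252) and Ca_04545 did so with a pseudocount of 1, PDC2 (Ca_00374) with rescaling and with centring within groups, and Ca_10542, Ca_15348 and Ca_04622 with that pseudocount and with both kinds of centring. The medians of the glycolysis and glutathione lists were 0.08 and -0.03 with rescaling. The cause of these shifts was not tested. Differences between low values, such as those under 1 FPKM, cannot be judged without depth.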
